A study of Mus musculus with 14 samples.

Results

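The cell cycle and DNA replication genes of the mouse embryo were followed as a set of 51 members, chosen by gene symbol from the 53465 genes of the count table. They comprise 10 genes of origin licensing and firing, 8 of DNA synthesis and nucleotide supply, 19 of G2 and mitosis, 10 G1 cyclins, kinases and E2F factors, and 4 inhibitors of cyclin-dependent kinases. The first and second of these lists are called the S phase genes here. Each symbol matched a single gene ID. PolyA-selected RNA was sequenced from C57BL/6 embryos, labelled wild type in every group, with no treatment given. Dorsal skin covers 4 ages (E9.5 and E10.5, then E12.5 and E14.5). At each there is 1 library titled ES and 1 titled E, from different sequencing projects, and these are called ES skin and E skin. The aorta-gonad-mesonephros region (AGM), where definitive blood stem cells arise beside the dorsal aorta, covers 3 labelled ages (E9.5 to E11.5, a day apart), with 2 libraries an age from separate sequencing rounds. For E9.5 the label gives caudal tissue that includes the PsP, an abbreviation the labels do not spell out. Nothing in the labels tells whether 2 libraries of 1 age were made from different embryos, and the p-values then cover library spread that may be technical.

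Cells license their replication origins in G1, when Cdc6 and Cdt1 load the ring-shaped MCM helicase onto DNA. Cyclin-dependent kinases then release E2F factors from the retinoblastoma protein, E2F turns on the genes of DNA synthesis, and a later wave of transcription supplies the cyclins, kinases and spindle proteins of G2 and mitosis. The Ink4 and Cip/Kip inhibitors, products of Cdkn2a, Cdkn2b, Cdkn1a and Cdkn1b, hold these kinases back, and they are known to accumulate in cells that stop dividing.

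Total counts per library were 6770338 to 15440012 in ES skin, 21527400 to 29534551 in AGM and 19929352 to 24003912 in E skin. Markers went against the label of the ES skin libraries. The 9 erythroid markers summed to at most 0.453 CPM (counts scaled to the library's total) in ES skin, with 7 or 8 of the 9 at 0 counts in each library, against 2353 CPM or more in E skin. The 6 keratinocyte markers summed to between 2.20 and 3.84 CPM in ES skin, against 19.5 to 4976 CPM in E skin. The 6 dermal mesenchyme markers were present in both, at 5318 to 7306 CPM in ES skin and 473 to 18853 CPM in E skin. Among ES libraries the closest pairs were E9.5 with E12.5 (r = 0.988 across genes, which are not replicates) and E10.5 with E14.5 (r = 0.991). E9.5 with E10.5 was nearly as close (r = 0.987). The AGM age labels also stand against part of the data. Lin28a, an RNA-binding protein of the early embryo that falls during development, was at 366, 84.6, 0.667 and 0.94 CPM in E skin from E9.5 to E14.5. In AGM it was at 23 and 40.8 CPM at labelled E9.5, 121 and 129 at E10.5, and 571 and 496 at E11.5. It belongs to a list of 6 genes of early development picked after the data were seen. Lin28b, Trim71, Sall4 and Igf2bp1, also of that list, were likewise higher at labelled E11.5 than at E9.5 in AGM and lower at E14.5 than at E9.5 in E skin. Hmga2, the remaining gene, went with the AGM labels instead. It was at 1186 and 1406, 1119 and 1091, and 844 and 857 CPM over the labelled AGM ages, and at 683, 426, 470 and 71.6 CPM in E skin. The adult globin gene Hbb-bt was at 139 and 61.3, 35.5 and 28.7, and 3.42 and 3.16 CPM over the same labelled AGM ages. It was picked from the 9 erythroid markers. Hba-a1 and Hba-a2 were also lower at labelled E11.5 than at E9.5 in each round. Hbb-bs, another adult globin gene, had 879 and 369, 349 and 233, and 370 and 282 reads, without a fall at the last step. The embryonic globin gene Hbb-y had 280659 and 126644, 168044 and 130980, and 79798 and 97080 reads. AGM libraries are therefore named by their labels throughout, and every AGM direction below is a direction over labelled ages.

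Promoter sequence, which separates the S phase from the mitotic genes in textbook accounts, was read from RefSeq (GRCm38.p6) for 43 members, from 250 bases before to 50 after each gene's start. The E2F motif was searched as the letters TTTCCCGC, TTTCGCGC, TTTGCCGC or TTTGGCGC on either strand. It lay in promoters of 8 of 16 S phase genes and of 1 of 16 G2 and mitosis genes, against 2.6% of the 27025 genes with a RefSeq promoter. Here and for the motifs below each gene counts once, as a match if any of its promoters held the motif. The CHR motif (cell cycle genes homology region), searched as TTTGAA on either strand, lay in 2 of 16 S phase promoters and 12 of 16 mitotic ones, against 20.2% of all. The CCAAT box was in 12 of 16 S phase and 15 of 16 mitotic promoters, against 41.1% of all. These are matches of letters and not tests of binding. The 160 bases before the start are shown for 5 members: a pair of MCM genes with E2F matches, 2 mitotic genes with CHR matches, and Cdk1, which holds both. Capitals mark E2F, CHR and CCAAT matches on either strand, and overlapping E2F matches run together.
Mcm5, chr8:75109349-75109508, plus strand: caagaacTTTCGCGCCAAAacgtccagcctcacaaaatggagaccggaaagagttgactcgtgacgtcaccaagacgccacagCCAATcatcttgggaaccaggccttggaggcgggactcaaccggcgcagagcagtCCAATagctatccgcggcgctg
Mcm6, chr1:128359706-128359865, minus strand: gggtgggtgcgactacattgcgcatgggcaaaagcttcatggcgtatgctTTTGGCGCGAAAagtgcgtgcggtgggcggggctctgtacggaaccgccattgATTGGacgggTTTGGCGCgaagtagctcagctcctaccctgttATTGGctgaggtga
Cdk1, chr10:69352913-69353072, minus strand: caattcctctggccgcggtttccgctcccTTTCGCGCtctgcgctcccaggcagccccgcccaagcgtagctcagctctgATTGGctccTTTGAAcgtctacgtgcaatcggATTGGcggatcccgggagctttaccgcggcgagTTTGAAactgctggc
Top2a, chr11:99024190-99024349, minus strand: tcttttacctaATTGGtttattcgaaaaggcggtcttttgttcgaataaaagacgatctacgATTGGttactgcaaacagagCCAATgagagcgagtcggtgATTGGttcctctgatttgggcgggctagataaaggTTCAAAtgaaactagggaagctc
Mki67, chr7:135716380-135716539, minus strand: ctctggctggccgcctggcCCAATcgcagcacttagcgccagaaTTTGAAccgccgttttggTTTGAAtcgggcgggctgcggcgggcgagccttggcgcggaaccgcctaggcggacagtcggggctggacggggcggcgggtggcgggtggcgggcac

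**Figure D1:**
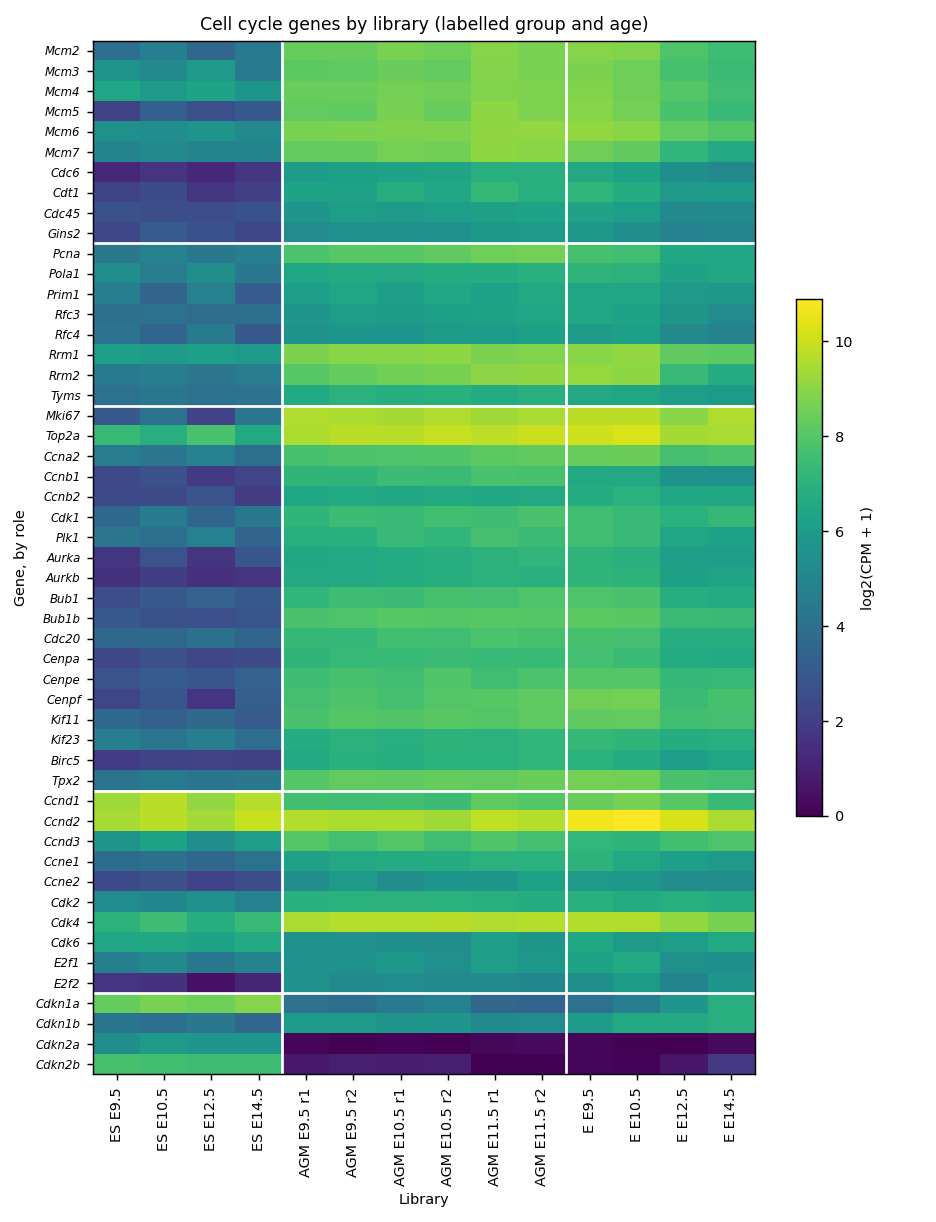
Level of the 51 members as log2(CPM + 1), 1 row a gene in order of role and 1 column a library. From left to right the columns are ES skin, AGM and E skin. The 4 ES columns are dark over the S phase and mitotic genes and bright at Cdkn1a, Cdkn2a and Cdkn2b at the bottom.

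The ES skin libraries held little RNA of the machinery of division. All 18 S phase genes and all 19 G2 and mitosis genes fell in ES skin against E skin, with a median log2 change of -2.44 for the first and -4.23 for the second (median of all 18968 tested genes -0.07). Over the 51 members, 45 were lower and 5 higher in edgeR's quasi-likelihood test with age as a block (Benjamini-Hochberg adjusted p under 0.05). Over all tested genes that test called 59.1%, of which 30.0% of the tested genes were lower and 29.1% higher, so a call by itself is common here, and the share of lower members stands above it. ES and E libraries differ in sequencing project at every age, and project and title cannot be told apart. In bulk RNA, fewer cells of a type and less RNA per cell cannot be told apart either.

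Mki67, the nuclear antigen used to mark cycling cells, had 7.26, 15.9, 3.54 and 19 CPM in ES skin from the youngest to the oldest age, against 870, 855, 494 and 764 CPM in E skin. Every ES library lay far below every E library, and E skin exceeded ES skin of its age by 40.2 to 139 times. The log2 change was -5.93 ± 0.40 (SE, adjusted p = 0.00026, edgeR). Cenpf, a kinetochore protein, had 3.85, 6.27, 2.07 and 8.87 CPM in ES skin against 368, 385, 168 and 212 CPM in E skin, a log2 change of -5.52 ± 0.41. Aurkb, the kinase of the chromosomal passenger complex, had 2.04, 3.06, 1.77 and 2.07 CPM in ES skin against 137, 132, 72.3 and 80.8 CPM in E skin, a log2 change of -5.22 ± 0.25. Neither gene's groups overlapped, and both sit at a few CPM in each ES library. Not every mitotic gene was so low. Top2a, the topoisomerase that untangles replicated chromosomes, still had 159, 114, 216 and 96.6 CPM in ES skin, against 1113, 1242, 677 and 716 CPM in E skin. Its log2 change of -2.40 ± 0.36 and that of Kif23, a kinesin of cytokinesis, at -2.38 ± 0.24 were the smallest among the mitotic genes.

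Among the licensing genes, Mcm5, a subunit of the MCM helicase, had 3.4, 9.19, 5.32 and 7.19 CPM in ES skin and 480, 391, 219 and 167 CPM in E skin. The groups did not overlap, and the log2 change was -5.26 ± 0.48 (adjusted p = 0.000514, edgeR). The 6 MCM subunits form 1 ring, yet they did not fall by the same amount. Mcm4 had 87, 59.7, 77.7 and 51.3 CPM in ES skin and 451, 367, 261 and 185 CPM in E skin, a log2 change of -1.84 ± 0.23. Cdc6, a helicase loader, had 1.36, 2.21, 1.33 and 2.27 CPM in ES skin and 95.2, 77.8, 41.8 and 34.2 CPM in E skin (log2 change -4.70 ± 0.41). Cdt1, the other loader, lay 19.1 to 38 times lower in ES skin at matched ages. Gins2 fell too, but 67.3% of its exon bases overlap the gene Gse1 on the other strand, and the sources used here do not say whether reads were counted by strand.

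All 8 genes of DNA synthesis fell, with a median log2 change of -1.86. Rrm2, the limiting subunit of ribonucleotide reductase, had 20.9, 23.9, 19.2 and 23.6 CPM in ES skin and 571, 520, 160 and 105 CPM in E skin (-3.31 ± 0.52). Pcna, the sliding clamp of the replication fork, had 18.7, 26.9, 19.6 and 24.1 CPM in ES skin and 207, 186, 90.9 and 83.4 CPM in E skin (-2.25 ± 0.32, adjusted p = 0.00201, edgeR). For Rrm2 and Pcna the ES values hardly moved with age while the E values fell. Rfc4, a subunit of the clamp loader, had 16.6, 10.7, 20.7 and 7.32 CPM in ES skin and 63, 69.5, 33.7 and 28.1 CPM in E skin, the smallest change of the S phase genes at -1.52 ± 0.37.

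The G1 genes split. Ccnd1, the cyclin D1 that answers growth factors, rose to 635, 865, 565 and 829 CPM in ES skin, against 325, 403, 267 and 165 CPM in E skin, without overlap (log2 change 1.67 ± 0.29, adjusted p = 0.00419, edgeR). Of its exon bases, 23.4% overlap another gene on the other strand. Ccnd2, its paralog, had 712, 872, 656 and 992 CPM in ES skin and 1601, 1894, 1192 and 734 CPM in E skin, where the groups overlapped and the test was not passed (-0.38 ± 0.34). Cdk6, the kinase partner of the D cyclins, had 86.4, 88.6, 78.3 and 101 CPM in ES skin and 88.9, 60.1, 68.4 and 97.5 CPM in E skin. These ranges overlap, and the age-matched test was just past its threshold (0.50 ± 0.17, adjusted p = 0.0471, edgeR). The other 7 genes fell, among them E2f2, an activating E2F factor, at 2.15, 1.99, 0.443 and 1.23 CPM in ES skin and 41.6, 59.5, 28.9 and 49.9 CPM in E skin (-4.74 ± 0.34). The E cyclins, which carry cells from G1 into S phase, also fell, Ccne2 at -3.05 ± 0.23 and Ccne1 at -2.28 ± 0.28.

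Inhibitors moved the other way, apart from Cdkn1b. Cdkn2a, which encodes p16Ink4a and p19Arf, had 41.8, 61, 52.4 and 49.8 CPM in ES skin, and 0.151, 0.044, 0 and 0.224 CPM in E skin. That is 2349 reads over the 4 ES libraries and 9 over the 4 E libraries, a ratio of pooled CPM of 515 (95% exact counting interval 271 to 1128). Cdkn2b, the neighbouring p15Ink4b gene on chromosome 4, had 212, 193, 183 and 181 CPM in ES skin and 0.1, 0.088, 0.583 and 2.46 CPM in E skin, a ratio of 233 (185 to 298). The intervals cover counting error only. Both genes were close to absent from E skin and steady across the ES libraries, with adjusted p = 0.000299 and 0.000764 (edgeR). Cdkn1a, the p21 inhibitor that p53 turns on, had 316, 416, 362 and 482 CPM in ES skin and 16.3, 24.1, 50 and 115 CPM in E skin (3.64 ± 0.44). Cdkn1b, the p27 inhibitor, had 17.7, 14.6, 18.8 and 11 CPM in ES skin and 61.7, 96.8, 93.7 and 115 CPM in E skin, lower without overlap (-2.25 ± 0.30).

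**Figure D2:**
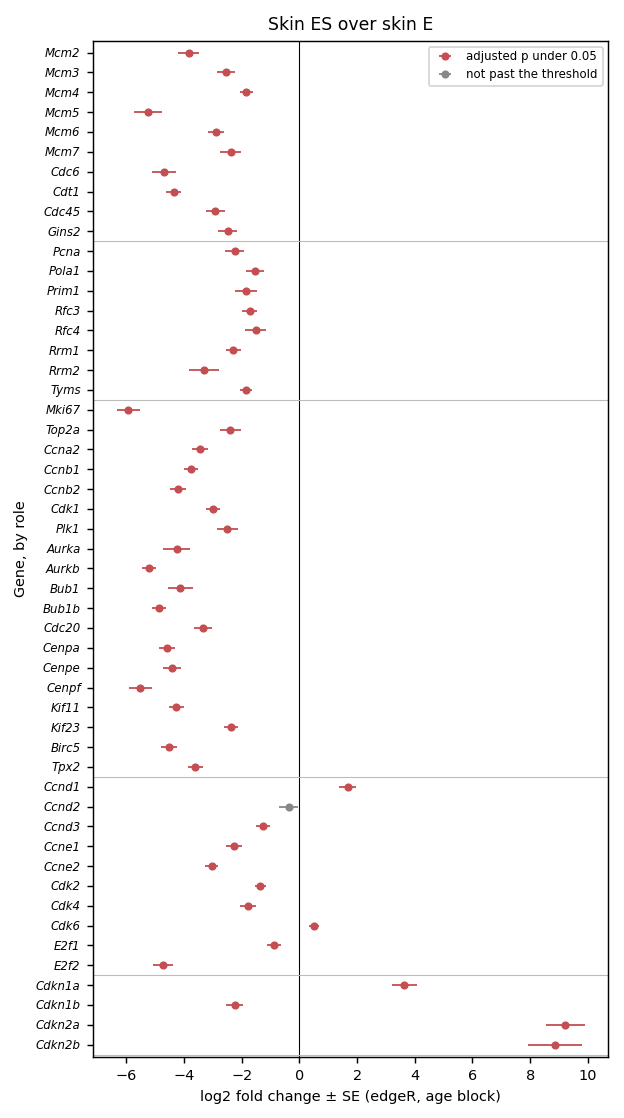
Log2 fold change of each member in ES skin over E skin (points) with its SE (bars), from edgeR with age as a block, 4 libraries each. Red points passed an adjusted p under 0.05. The mitotic genes lie left of most S phase genes, and Cdkn2a (9.22) and Cdkn2b (8.85) lie at the far right.

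Genes outside the 51 members, from lists of the same pathways, followed them. All 27 other S phase genes and all 32 other G2 and mitosis genes fell, with medians of -2.68 and -3.51, among them Foxm1 and Mybl2, transcription factors of the mitotic wave. Of 12 textbook targets of p53, 11 rose and none fell, with a median of 2.31. For these lists too, the same test called 30.0% of all tested genes lower and 29.1% higher. Activity of p53 was not tested. Ccng1, cyclin G1, had 1212, 1174, 1186 and 1325 CPM in ES skin and 56.1, 61.2, 61.7 and 110 CPM in E skin (4.45 ± 0.27). Mdm2, the ubiquitin ligase of p53, had 334, 382, 439 and 548 CPM in ES skin and 71.6, 79, 72.2 and 66 CPM in E skin (2.85 ± 0.23). Bbc3, a cell death gene, had 5.96 to 12 CPM in ES skin and 7.54 to 18.6 CPM in E skin and did not pass (-0.21 ± 0.44). Cdkn1c, the p57 inhibitor, had 5.1, 5.34, 4.28 and 5.25 CPM in ES skin and 153, 321, 896 and 860 CPM in E skin (-6.17 ± 0.56). The 7 macrophage markers summed to 135 to 356 CPM in ES skin against 6.42 to 209 CPM in E skin, and the erythroid, keratinocyte, muscle and endothelial markers were far lower in ES skin. The part of these cell types in the changes was not tested.

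No member passed a test of age in ES skin. The edgeR slope on embryonic day called 0 of 51 members and 0 of 15242 genes (0.00%), with 272 genes at an unadjusted p under 0.05, and 16 genes by DESeq2. Several members instead took like values within the pair E9.5 and E12.5 and within the pair E10.5 and E14.5. The pairs also differ in depth, with 8820803 and 6770338 counts in the first and 14044081 and 15440012 in the second, and the part of depth was not tested. Mki67 was at 7.26 and 3.54 CPM in the first pair and 15.9 and 19 CPM in the second, and Aurka, a spindle pole kinase, at 2.27 and 2.22 against 5.91 and 6.61 CPM. Pola1, the catalytic subunit of polymerase alpha, ran the other way, at 38.3 and 41.1 CPM against 23.1 and 19.2 CPM.

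**Figure D3:**
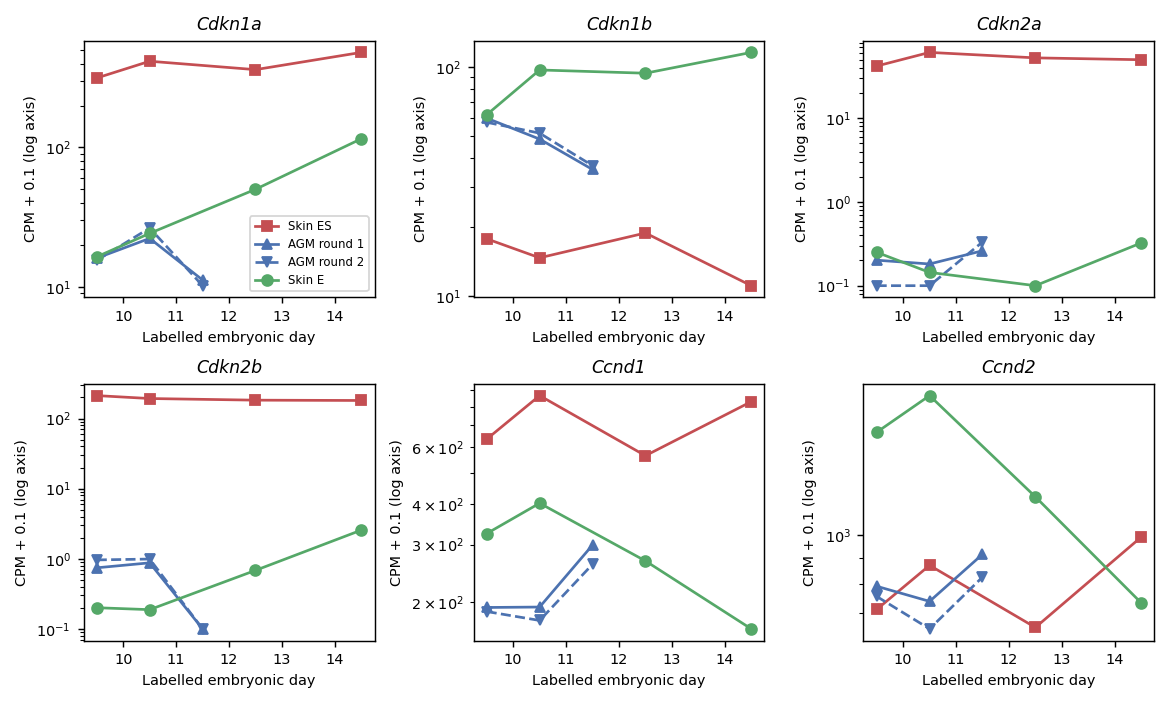
CPM + 0.1 of the 4 inhibitors and 2 D cyclins on a log axis against labelled embryonic day, with 1 line for ES skin (red), 1 for each AGM round (blue) and 1 for E skin (green), and no error bars since each point is 1 library. Cdkn1a in E skin is at 16.3, 24.1, 50 and 115 CPM over its 4 ages, while ES skin is at 316 CPM or more. Cdkn1b in AGM lies lowest at labelled E11.5.

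In E skin the genes of replication and division stepped down between E10.5 and E12.5. At E12.5, 39 of the 50 tested members were lower than at E10.5 and 1 was higher, where 12.7% of all tested genes were lower and 17.4% higher (30.1% called in all). Each age is 1 library, whose spread was taken from the AGM pairs of a joint edgeR fit of 10 libraries, so this step has no replicate check of its own. Of the S phase genes 16 of 18 fell with a median log2 change of -0.89, and of the mitotic genes 17 of 19 with a median of -0.84, against 0.00 for all genes tested.

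Rrm2 had 571, 520, 160 and 105 CPM from the youngest to the oldest age, and its change at E12.5 against E10.5 was -1.75 ± 0.16 (adjusted p = 0.000146, edgeR). Mcm7, of the MCM ring, had 365, 298, 142 and 93.6 CPM (-1.12 ± 0.13). Cenpf had 368, 385, 168 and 212 CPM (-1.24 ± 0.17). These 3 genes were high at both early ages and low at both later ones, and the latest value of Cenpf lay between. Pcna had 207, 186, 90.9 and 83.4 CPM (-1.08 ± 0.16), and Ccnb1, the cyclin that drives entry into mitosis, 98.1, 94.5, 47.5 and 43.4 CPM (-1.04 ± 0.12). E2f1, the founding E2F factor, had 77.7, 97.8, 43.4 and 41.9 CPM (-1.22 ± 0.21). Cdk1, the mitotic kinase, had 188, 159, 123 and 150 CPM and did not pass at this step (-0.42 ± 0.20). Summed over the S phase genes, E12.5 held 54.7% of the E10.5 level, and over the mitotic genes 57.5%. The other S phase list had 20 of 27 genes lower and none higher, and the other mitotic list 27 of 32 and none.

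Before that step little moved. From E9.5 to E10.5 the test called Cdkn1b alone, higher at E10.5 (0.65 ± 0.13, adjusted p = 0.0242, edgeR), where 6.43% of all tested genes were called. With the AGM round as a block, which changes the spread the skin libraries borrow, 15 of 50 members passed, 6 higher and 9 lower. In that fit 19.4% of all tested genes were called, and 5 S phase genes were among the lower members.

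At E14.5 against E12.5, 6 of the 50 tested members rose and 4 fell, where 27.5% of all tested genes were called (14.3% higher and 13.2% lower), so members were called less often than that background and the count is no result about them. With the AGM round as a block these counts were 15 and 8, where 45.2% of all tested genes were called, so they too are close to their background. Mki67 was at 764 CPM at E14.5 and 494 CPM at E12.5 (0.76 ± 0.14, adjusted p = 0.00545, edgeR), and E2f2 at 49.9 and 28.9 CPM (0.92 ± 0.22). Against these, Mcm7 was at 93.6 CPM at E14.5 and 142 CPM at E12.5 (-0.47 ± 0.13), and Rrm2 at 105 and 160 CPM (-0.48 ± 0.15). Ccnd2 was at 734 CPM at E14.5 and 1192 CPM at E12.5 (-0.57 ± 0.15), and Ccnd1 at 165 and 267 CPM (-0.57 ± 0.15). Pcna did not move detectably, at 83.4 CPM at E14.5 and 90.9 CPM at E12.5 (0.01 ± 0.16).

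The 3 tested inhibitors all rose in E skin at the last step. Cdkn1a had 16.3, 24.1, 50 and 115 CPM from E9.5 to E14.5, and passed at the steps to E12.5 (1.0 ± 0.17) and to E14.5 (1.34 ± 0.17, adjusted p = 0.000701, edgeR). Cdkn2b had 55 reads at E14.5 and 14 at E12.5, a ratio of CPM of 4.22 (95% exact counting interval 2.32 to 8.22), and passed (2.20 ± 0.53, adjusted p = 0.0198). Cdkn1b had 61.7, 96.8, 93.7 and 115 CPM (0.43 ± 0.13 at the last step). Beside these steps, the neural progenitor genes Sox1 and Pax6 were at 91.8, 81.9, 3 and 0.0448 CPM and at 118, 111, 3.29 and 0.0448 CPM over the 4 ages. Keratinocyte markers summed to 21, 19.5, 199.9 and 4976 CPM over the 4 ages, dermal mesenchyme markers to 676, 473, 5854 and 18853 CPM, neural markers to 1080, 2892, 1236 and 408 CPM, and skeletal muscle markers to 52.3, 171, 863 and 2121 CPM. No marker of these 4 lists was at 0 in E skin, and the part of these cell types in the member changes was not tested.

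A straight line over the 4 ages did not resolve the change. The slope on embryonic day called 0 of 50 members and 4 genes of 16929 (0.0236%), with 5006 genes at an unadjusted p under 0.05, on 2 residual degrees of freedom. All 37 S phase and mitotic genes had a slope below 0, with medians of -0.24 and -0.16 log2 units a day. Over all tested genes 50.9% had a slope above 0. The signs of the members come from the same 4 libraries and are not separate observations. DESeq2 called 24 members for the same slope and limma-voom 0.

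**Figure D4:**
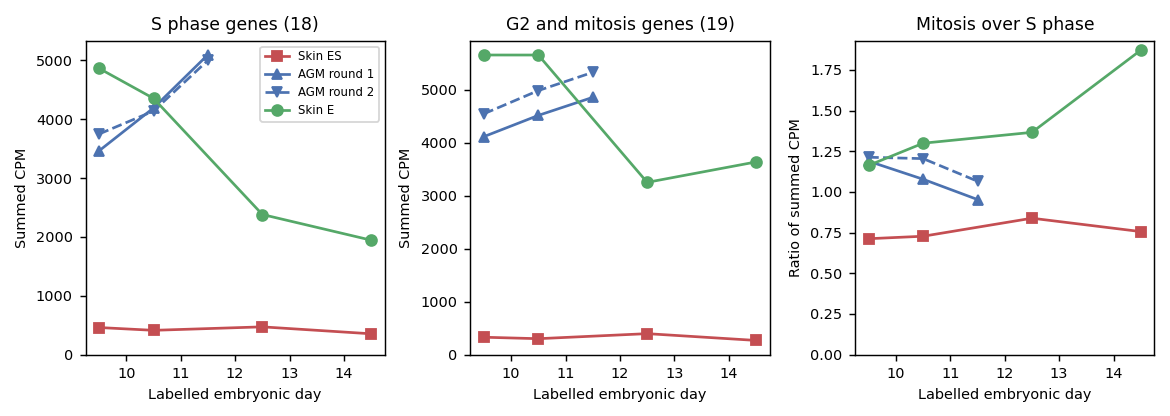
Summed CPM of the 18 S phase genes, summed CPM of the 19 G2 and mitosis genes, and the ratio of the second to the first, by labelled embryonic day, with 1 point a library. In the right panel ES skin lies between 0.712 and 0.838, the AGM rounds between 0.953 and 1.21, and E skin at 1.16, 1.30, 1.37 and 1.87 over its ages.

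The balance of mitotic to S phase RNA was lower in ES skin than in the other libraries. The mitotic sum over the S phase sum was 0.712, 0.727, 0.838 and 0.756 in ES skin from E9.5 to E14.5, and 1.16, 1.30, 1.37 and 1.87 in E skin. In AGM it was 1.19 and 1.21 at labelled E9.5, 1.08 and 1.2 at E10.5, and 0.953 and 1.07 at E11.5. Every ES library lay below every AGM and E skin library, AGM and E skin overlapped, and the AGM libraries labelled E9.5 lay above those labelled E11.5 without overlap. In E skin the last rise came with S phase genes at 81.7% and mitotic genes at 112% of their E12.5 sums. These ratios are descriptions with no test, and their size depends on the highest members, since Top2a and Mki67 carry much of the mitotic sum. Scaled to exon length, the highest median levels in E skin were those of Cdk4, the main kinase partner of the D cyclins, at 207 CPM per kb, Ccnd2 at 148 and Rrm2 at 123.

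In AGM, genes of DNA replication and division were higher at the later labelled ages. Of the 50 tested members, 36 were higher at labelled E11.5 than at E9.5 and 3 were lower, where 45.2% of all tested genes were called (21.1% higher). The 36 rose in both rounds, and 35 of them without overlap between ages. They were called from these same libraries, so that is no separate support, and its share over all genes was not computed. S phase genes had a median log2 change of 0.60 with 15 of 18 higher, and mitotic genes one of 0.44 with 16 of 19 higher, against -0.00 for all genes. All 10 licensing genes rose. Over these labels 5 of the 6 early development genes given above ran opposite to their course in E skin, and Hmga2 was lower at the latest age in both.

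Rrm2 had 263 and 315 CPM at labelled E9.5, 378 and 398 at E10.5, and 517 and 546 at E11.5, and its change from E9.5 to E11.5 was 1.02 ± 0.11 (adjusted p = 0.000273, edgeR). Cdt1 had 79.2 and 73.4, 110 and 89.4, and 152 and 117 CPM at these ages (0.97 ± 0.16). Cdc6 had 63.6 and 72.7, 79.7 and 81.3, and 115 and 113 CPM (0.89 ± 0.10). All 3 genes climbed at each labelled step in each round. Pcna had 225 and 266, 266 and 298, and 355 and 394 CPM (0.75 ± 0.12, adjusted p = 0.00134, edgeR). Plk1, a kinase of mitotic entry and exit, had 116 and 119, 159 and 143, and 204 and 171 CPM (0.82 ± 0.12), and Ccnb1 140 and 138, 175 and 168, and 215 and 212 CPM (0.76 ± 0.09). Mki67 did not follow. It had 769 and 754 CPM at labelled E9.5, 690 and 779 at E10.5 and 644 and 734 at E11.5. Its CPM at E11.5 lay below that at E9.5 in each library, while the fitted change, which also scales libraries by TMM, was -0.00 ± 0.10 and not past the test. Rrm1, the other subunit of ribonucleotide reductase, had 429 and 487, 491 and 532, and 430 and 458 CPM over these ages, with overlap between E9.5 and E11.5, and did not pass (0.10 ± 0.10).

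Of the G1 genes, Ccnd1 had 192 and 186, 192 and 175, and 299 and 261 CPM over the 3 labelled ages (0.71 ± 0.11), and Ccne1 73.7 and 92.7, 104 and 105, and 122 and 123 CPM (0.70 ± 0.12). Ccnd1 was flat until the last labelled age. Inhibitors fell at that age. Cdkn1a had 15.9 and 15.4, 22.2 and 26.3, and 11.1 and 10.1 CPM, lowest at labelled E11.5 and highest at E10.5. Cdkn1b had 59.6 and 57.2, 48.3 and 51.3, and 35.6 and 37 CPM (-0.54 ± 0.09, adjusted p = 0.00234, edgeR). Cdkn2b had 0 reads in both libraries labelled E11.5 and 42 over those labelled E10.5, at least 12.9-fold lower at E11.5 when 3 counts over the group are taken as the floor. Cdkn2a was too low to test, at 0.232 CPM or less in each AGM library. Cdkn1c, outside the set, was also lowest at labelled E11.5, with 535 and 529, 423 and 441, and 102 and 107 CPM.

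The single labelled steps were smaller. At E11.5 against E10.5, 19 members were higher and 3 lower, where 27.2% of all tested genes were called (11.8% higher and 15.4% lower). With the round as a block these counts were 35 and 3, where 48.2% of all tested genes were called. Without 1 of the 4 compared libraries, the 22 calls fell to 11 and 9 when the first or second library labelled E10.5 was left out, and to 10 and 13 for those labelled E11.5. At E10.5 against E9.5 only Cdkn1a passed (0.68 ± 0.13) in the fit without the round, where 2.59% of all tested genes were called. It no longer passed (0 members) without the first library labelled E9.5, either library labelled E10.5 or the first labelled E11.5. Yet all 37 S phase and mitotic genes had a positive change there, with medians of 0.23 and 0.21. Over all tested genes 49.95% had a positive change, with a median of -0.0001. The signs of the members come from the same libraries and are not separate observations. With the round as a block 28 of 50 members passed and all were higher, where 24.1% of all tested genes were called. Of these 28, 14 were S phase and 12 mitotic genes. For E11.5 against E9.5, the 39 calls became 23 without the first library labelled E9.5 and 25 without the second labelled E11.5. Beside these changes, the 7 macrophage markers summed to 113 and 104 CPM at labelled E9.5, 46.1 and 41.9 at E10.5, and 6.7 and 8.2 at E11.5, and the 5 mesonephric markers to 213.5 and 187.7, 180.8 and 151.7, and 52.4 and 45.7 CPM. The 5 skeletal muscle markers summed to 77.6 and 132, 135 and 192, and 14.2 and 17.6 CPM, and the 6 dermal mesenchyme markers to 2388 and 1537, 1401 and 1144, and 922 and 932 CPM. Markers of neural progenitors were higher at labelled E11.5, as the replication genes were. Sox1 was at 0.0677 and 0.123 CPM at labelled E9.5, 1.35 and 1.43 at E10.5, and 48 and 41.5 at E11.5. Sox2 was at 89 and 90.8 CPM at labelled E11.5 and 6.77 and 6.2 CPM at E9.5. Pax6 was at 57.9 and 67.3 CPM at labelled E11.5 and 0.169 and 0.37 CPM at E9.5. The neuronal markers of the same list were lowest at labelled E11.5, with Nefm at 164 and 153, 180 and 176, and 17.4 and 21.3 CPM, and the whole list of 7 summed to 523 to 682 CPM in each AGM library. Up to 3 macrophage markers were at 0 in an AGM library and no marker of the other 4 lists was, and their part in the member changes was not tested.

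**Figure D5:**
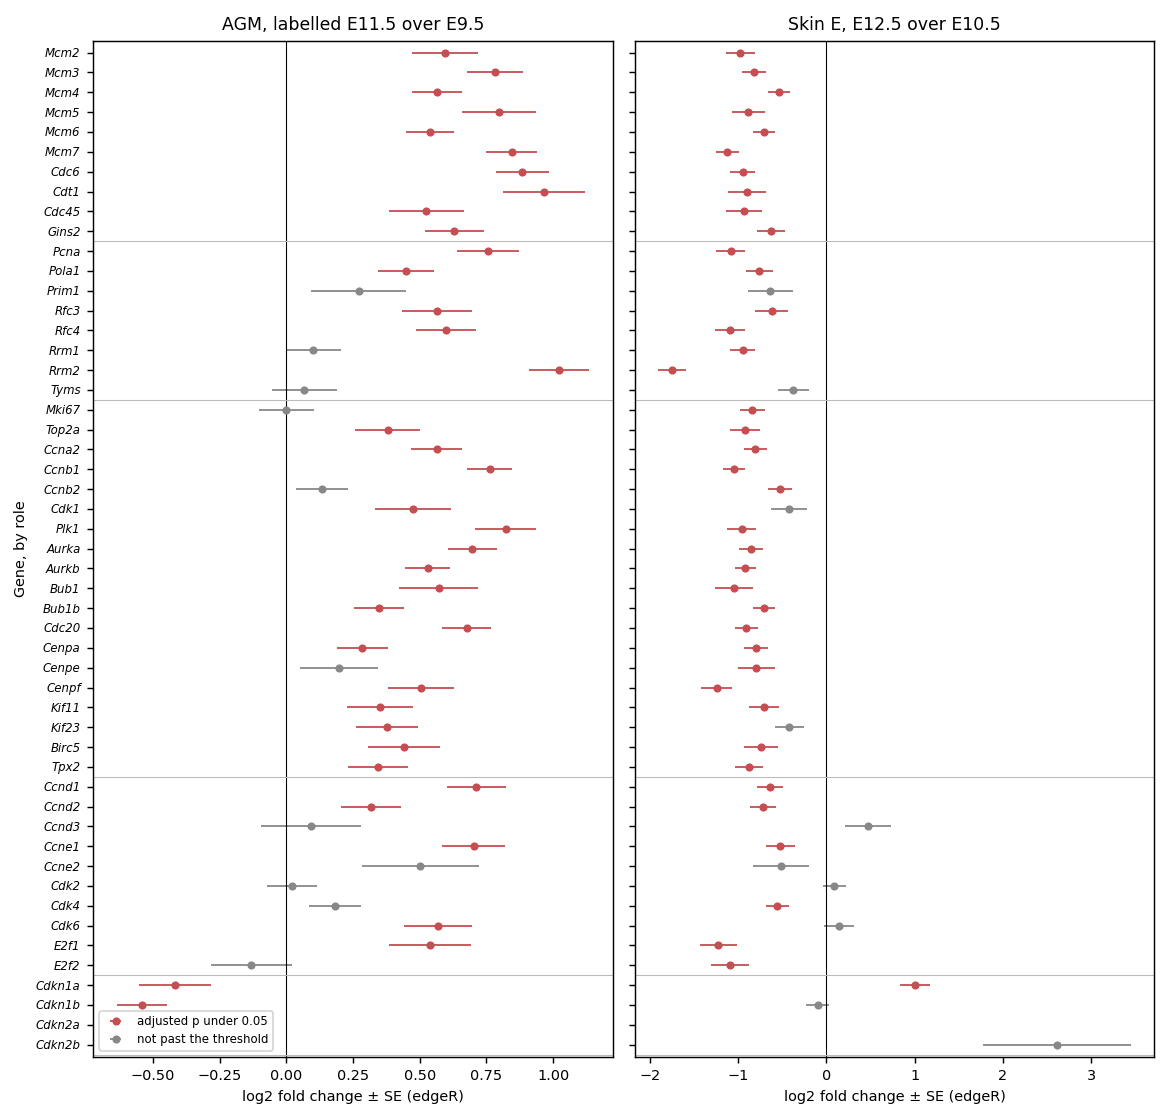
Log2 fold change (points) and SE (bars) of each member, at left in AGM labelled E11.5 over E9.5 (2 libraries each) and at right in E skin at E12.5 over E10.5 (1 library each, spread from AGM). Red points passed an adjusted p under 0.05 in edgeR, and the axes of the panels differ. Replication and mitosis genes lie right of 0 in AGM and left of 0 in E skin. Cdkn2a was not tested, and Cdkn2b is not drawn at left since it had 0 reads at labelled E11.5.

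AGM was set against E skin at the shared ages E9.5 and E10.5, where tissue and sequencing project cannot be told apart. The test with age as a block called 3 members higher and 12 lower in AGM, where 28.0% of all tested genes were called (14.9% higher and 13.1% lower). The members' share in both directions is close to that background. By direction, 12 of 50 lower stands above it and 3 of 50 higher below it. Of the 50, 43 had a negative change, where 50.6% of all tested genes had a positive one. Ccnd2 had 739 to 792 CPM in the first AGM round and 652 to 756 CPM in the second, against 1601 and 1894 CPM in E skin (-1.28 ± 0.13, adjusted p = 0.001, edgeR). Ccnd1 had 175 to 192 CPM in AGM against 325 and 403 CPM in E skin (-0.99 ± 0.11). Both D cyclins were lower in each AGM library than in each E skin library. Ccnb1 had 138 to 175 CPM in AGM against 98.1 and 94.5 CPM in E skin (0.65 ± 0.13), and Ccnd3, the third D cyclin, 185 to 261 CPM against 146 and 134 CPM (0.66 ± 0.18). Cdkn2b was the remaining higher member, at 0.643 to 0.891 CPM in AGM against 0.1 and 0.088 CPM in E skin, where those values are 2 reads each. Other lower members were Cenpf (-0.80 ± 0.12), E2f1 (-0.90 ± 0.13), Cdk6 (-0.81 ± 0.14) and Rrm2 (-0.74 ± 0.17), in which the mean over both ages is compared. Mki67 (-0.23 ± 0.11) and Pcna (0.39 ± 0.14) did not pass. Without the second AGM round 0 members passed, with 534 of all genes called. The 15 calls became 30 without E skin of E10.5 and 9 without either AGM library labelled E9.5. At these ages erythroid markers summed to 11860 to 20688 CPM in AGM against 2649 and 4845 CPM in E skin. Neural markers summed to 523 to 682 CPM in AGM against 1080 and 2892 CPM in E skin. The part of these cell types in the member differences was not tested.

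In the fit without the round, the change from E9.5 to E10.5 differed between AGM and E skin for 3 of 50 members. There 7.67% of all tested genes were called, so the count does not exceed the background. Mcm7 changed by 0.36 ± 0.10 in AGM and by -0.29 ± 0.13 in E skin, a difference of 0.66 ± 0.15 (adjusted p = 0.0388, edgeR). Ccne1 changed by 0.38 ± 0.12 in AGM and -0.46 ± 0.16 in E skin, and Cdkn1b by -0.18 ± 0.09 in AGM and 0.65 ± 0.13 in E skin. With the round as a block 31 of 50 members differed, where 25.8% of all tested genes were called. Of these 31, 28 had the larger change in AGM, with 14 S phase and 11 mitotic genes among the 28. In the fit without the block, no member passed without any 1 of 3 AGM libraries (the first labelled E9.5 and either labelled E10.5). There 1 passed without either library labelled E11.5. The AGM ages in this comparison rest on their labels.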

How the data were processed

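The authors deposited a table of raw read counts, with 53465 genes and 14 libraries. GRCm38/mm10 is the genome per the submitters' processing notes, which name the tools DESeq2 1.20.0, featureCounts 1.6.0, STAR 2.5.0a and Trimmomatic 0.36. Settings and strand of counting are not stated there. Members and lists were chosen with earlier results of these data known. Columns of the second AGM round name no age. Each was given the age of the first-round sample with its number, which is an assumption.

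Counts were scaled to CPM by library total, without the TMM factors that enter the fitted log2 changes. Tests used edgeR 4.0.16 in R 4.3.3 (filterByExpr, TMM, glmQLFit, glmQLFTest), with p-values adjusted by Benjamini-Hochberg over all tested genes and called under 0.05. The fits used 6 AGM libraries for AGM ages, 10 libraries (AGM and E skin) for E skin steps and for the difference between tissues, 8 skin libraries with age as a block, 6 libraries with age as a block for AGM against E skin, and 4 libraries for each slope. They left 2 residual degrees of freedom for slopes and 3 otherwise. The edgeR fit was checked on simulated counts for AGM E11.5 against E10.5, ES against E skin, AGM against E skin and E skin E12.5 against E10.5. Those counts were drawn with a common spread for all libraries and genes of a fit. The check therefore cannot tell whether E skin varies like the AGM pairs. The other comparisons and the alternatives were not checked that way. Lists were described by counts and medians.

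All members may be named. Full values go to Mki67, Pcna and up to 3 called members of largest change in each list and comparison, and other members were named after their values were seen. Whether AGM round numbers pair samples was checked by the correlation of their deviations between ages, which was 0.427, 0.305 and 0.354 across 17613 genes. The labels also tie each round to a sequencing project, so the rounds pair the AGM libraries. The main fits left the round out, so their p-values and SE ignore this pairing. Blocked counts stand beside results that they move by over 1.5 times. Exon lengths and overlaps come from GENCODE M21 (GRCm38), where 49 of 51 members have the same coordinates, and 16 members share exon bases with another gene. Alternatives were RLE size factors, no low-count filter, DESeq2 1.42.0, limma-voom (limma 3.58.1), other sets of libraries, the round block and each library left out. Reads were not analysed here.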

Additional observations from a re-analysis of the deposited data

Results flagged for a closer look

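The change from E9.5 to E10.5 differed between AGM and E skin by a test of the difference itself for 3 of 50 members (edgeR, each skin age being 1 library). Over all tested genes 7.67% were called, so in this fit, which leaves out the AGM round, the count is below the background. By itself it is no result about the members. With the round as a block 31 of 50 members differed, 28 with the larger change in AGM, where 25.8% of all tested genes were called. In the fit without the block, 0 members passed without any 1 of 3 AGM libraries (the first labelled E9.5 and either labelled E10.5). The AGM change minus the E skin change was 0.659 for Mcm7, 0.852 for Ccne1 and -0.817 for Cdkn1b on the log2 scale. Mcm7 was at 388 and 384 CPM at labelled E10.5 and 307 and 319 CPM at E9.5 in AGM, against 298 CPM at E10.5 and 365 CPM at E9.5 in E skin. Both AGM rounds moved up and the skin library moved down. Ccne1 was at 104 and 105 CPM at E10.5 and 73.7 and 92.7 CPM at E9.5 in AGM, against 96.2 and 132 CPM in E skin at the same ages. Cdkn1b was at 48.3 and 51.3 CPM at E10.5 and 59.6 and 57.2 CPM at E9.5 in AGM, against 96.8 and 61.7 CPM in E skin. The AGM part of these differences rests on labelled ages.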

How the results depend on the processing

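Counts are of members called. In the fit of all 14 libraries no member passed in any AGM, E skin step or AGM against E skin comparison (0 in each). No low-count filter gave 8 for AGM E10.5 against E9.5, 5 for the E skin slope, 2 for E skin E10.5 against E9.5, 24 for AGM against E skin and 7 for the difference between tissues. DESeq2 gave 6 for AGM E10.5 against E9.5, 24 for that slope, 23 for AGM against E skin and 6 for the difference. With the AGM round as a replicate block the count was 28 for AGM E10.5 against E9.5 (24.1% of all tested genes called). For E11.5 against E10.5 it was 38 (48.2%). For E skin it was 15 at E10.5 against E9.5 (19.4%) and 23 at E14.5 against E12.5 (45.2%). For the difference it was 31 (25.8%). The block moved no other count by over 1.5 times. The 4 libraries of the compared ages alone gave 0 for AGM E10.5 against E9.5. AGM against E skin gave 30 at E9.5 alone and 0 without second-round AGM libraries, a setting chosen after seeing the data.

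Leaving out 1 library gave 0 to 1 for AGM E10.5 against E9.5, 9 to 21 for E11.5 against E10.5, 23 to 37 for E11.5 against E9.5, 38 to 40 for E skin E12.5 against E10.5, 7 to 10 for E14.5 against E12.5, 47 to 50 for ES against E skin, 9 to 30 for AGM against E skin and 0 to 3 for the difference. Mitosis over S phase on the log2 scale, ES minus E skin, was -1.26 with geometric means and -1.37 without the highest member, against -0.89. For E skin E14.5 minus E9.5 it was 0.49 and 0.75, against 0.69.

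Of 1191 values of named genes under an alternative, 1019 kept sign and side of the threshold, 164 kept only the sign and 8 reversed, all in the fit of all 14 libraries. These were Cdkn1a at -0.147 for E skin E12.5 against E10.5 and Ccnd2 at 0.0889 for E14.5 against E12.5. For AGM against E skin they were Ccna2 at 0.371, Cdkn2b at -7.28, Cenpf at 0.223, Pola1 at 0.202, Rfc4 at 0.355 and Rrm2 at 0.239. In that fit each skin age pools ES with E libraries. Over all genes, AGM E10.5 against E9.5 called 457, against 1769 with no filter, 929 by DESeq2, 4237 with the round block and 1 without the second library labelled E10.5. No filter gave 783 genes and DESeq2 3786 for the E skin slope, against 4.

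Leaving out a skin library from its own step leaves that age empty and was not run. The length column of the count table exceeds the gene's span for 50 of 51 members, so the planned scaling by it was replaced by exon length, chosen after seeing the data. Cdkn2a and Cdkn2b had few or no reads outside ES skin, though those libraries are the deeper ones, so their fold changes rest on small counts there.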

Other observations

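The E2F and retinoblastoma families outside the 51 members did not move as blocks in ES skin against E skin. Of the 13 genes in the list of other G1 and pocket protein genes, 7 were lower, 1 was higher and 5 did not pass (edgeR, adjusted p under 0.05). Over all tested genes 59.1% were called (30.0% lower and 29.1% higher), so the share called in both directions together is near the background, and the values of single genes are given as descriptions. E2f7 and E2f8, paralogs that repress E2F targets, went opposite ways. E2f7 had 3.17, 3.28, 2.36 and 3.17 CPM in ES skin from the youngest to the oldest age, against 90.2, 84.1, 63.7 and 55.5 CPM in E skin (log2 change -4.28 ± 0.23, SE). E2f8 had 83.4, 116, 61.4 and 77.2 CPM in ES skin against 62, 62, 48.7 and 65.7 CPM in E skin (0.78 ± 0.18, adjusted p = 0.0106). Its ranges overlap by a single ES value. Rbl1, the p107 pocket protein, had 8.12 to 10 CPM in ES skin and 61.6 to 93.8 CPM in E skin (-2.74 ± 0.20). Rb1, the retinoblastoma gene itself, had 45 to 54.8 CPM in ES skin and 48.3 to 81.5 CPM in E skin and did not pass (-0.08 ± 0.23). Rbl2, the p130 pocket protein of resting cells, had 45.9, 42.9, 38.6 and 40 CPM in ES skin, against 7.43, 16.5, 32.8 and 43.1 CPM in E skin, and missed the threshold (1.32 ± 0.47, adjusted p = 0.0504). Its E skin values climb with age. Over labelled AGM ages it ran the other way, at 21.6 and 16.6, 12.7 and 13.6, and 8.38 and 8.22 CPM.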
